A study of Homo sapiens with 2 samples.

Results

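Translation initiation factors are the proteins that bring the initiator tRNA, the mRNA and the small ribosomal subunit together and find the start codon, and their transcripts were examined in PC-3 cells exposed to RD. The members were all probe sets paired with a single gene whose symbol begins with EIF and a digit from 1 to 6, without the EIF2AK kinases. This gave 120 probe sets of 47 genes, out of 19775 genes that the array reads with a probe set of their own. Of the 47 genes, EIF1B-AS1 and EIF3J-DT are noncoding RNA genes next to an initiation factor gene and were set apart. For 1 Y-linked gene, EIF1AY, no level is given. The other 44 genes, with 114 probe sets, are described here by factor number.

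PC-3 is an androgen-independent human prostate cancer cell line, and RD (Riccardin D) is a macrocyclic bisbibenzyl isolated from a liverwort. The RD group is 1 sample of cells given 10 µmol/L RD for 24 h and the control group is 1 sample given the DMSO vehicle, each read on 1 Affymetrix HG-U133 Plus 2.0 array. The dose is that of the study's description of the array experiment, and the sample name of the control reads as not treated, so that the vehicle is known from the treatment protocol alone. Each array value is a MAS5 signal, an intensity on a linear scale computed from a set of short oligonucleotides (a probe set), and signals cannot be compared between probe sets. As a check of the cell label, the epithelial keratin gene KRT18 had signals of 10224.2 (control) and 15416.6 (RD), KRT8 had 113.8 and 159.3 and the mesenchymal marker VIM had 29512.2 and 31652.1. Against the expectation for this line, the epithelial marker EPCAM did not reach the floor on either array, while the prostate marker KLK3 was dim but above it, at 131.4 and 230.6.

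The floor, 66.9, is the middle signal over both arrays. A gene is represented by its brightest probe set, and it is called higher or lower after RD when its 2 signals are at least 2-fold apart and the larger of them reaches the floor. No test could be made with 1 array per condition. The scatter of log2 differences (RD minus control) between probe sets of the same gene stands in for an error and leaves out all variation between cultures. It had an SD of 0.28, or 1.21-fold, over 52 probe sets of 18 initiation factor genes whose signals were no dimmer than 377.4 on either array, which is the 75th percentile over both arrays. In a bulk RNA measurement of this kind, fewer cells with a transcript and less of it per cell cannot be told apart.

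In textbook order, eIF1 and eIF1A hold the small subunit in a scanning state and reject wrong start codons, eIF2 carries the initiator tRNA with GTP, and eIF5 triggers the hydrolysis of that GTP when a start codon is met. eIF2B reloads eIF2 with GTP, and phosphorylation of eIF2 blocks this step during cell stress. eIF3 is a scaffold on the small subunit. The eIF4 proteins bind the mRNA cap, unwind the leader and link the mRNA to eIF3, and eIF4E-binding proteins hold the cap-binding protein back. eIF5B joins the large subunit, eIF5A helps peptide bond formation, and eIF6 keeps free large subunits from joining.

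Most initiation factors differed by less than 1.5-fold between the arrays. Of the 44 genes, 42 reached the floor, 27 with a higher and 15 with a lower signal in RD-treated cells. At least 2-fold higher were EIF1B, EIF2A and EIF3C, which is 7.14% of the 42 genes against 12.1% of the 12818 genes of the whole array at or above the floor. None was at least 2-fold lower, against 13.3% of all genes. At the smaller threshold of 1.5-fold, 7 genes (16.7%) were higher, against 22.8% of all genes, and 5 genes (11.9%) were lower, against 24.7%. Their log2 differences had a median of 0.20, while those of all genes had one of -0.0022. With the median over all probe sets of a gene in place of the brightest one, the median of the family was 0.00095, so a general shift of the family depends on that choice.

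**Figure D1:**
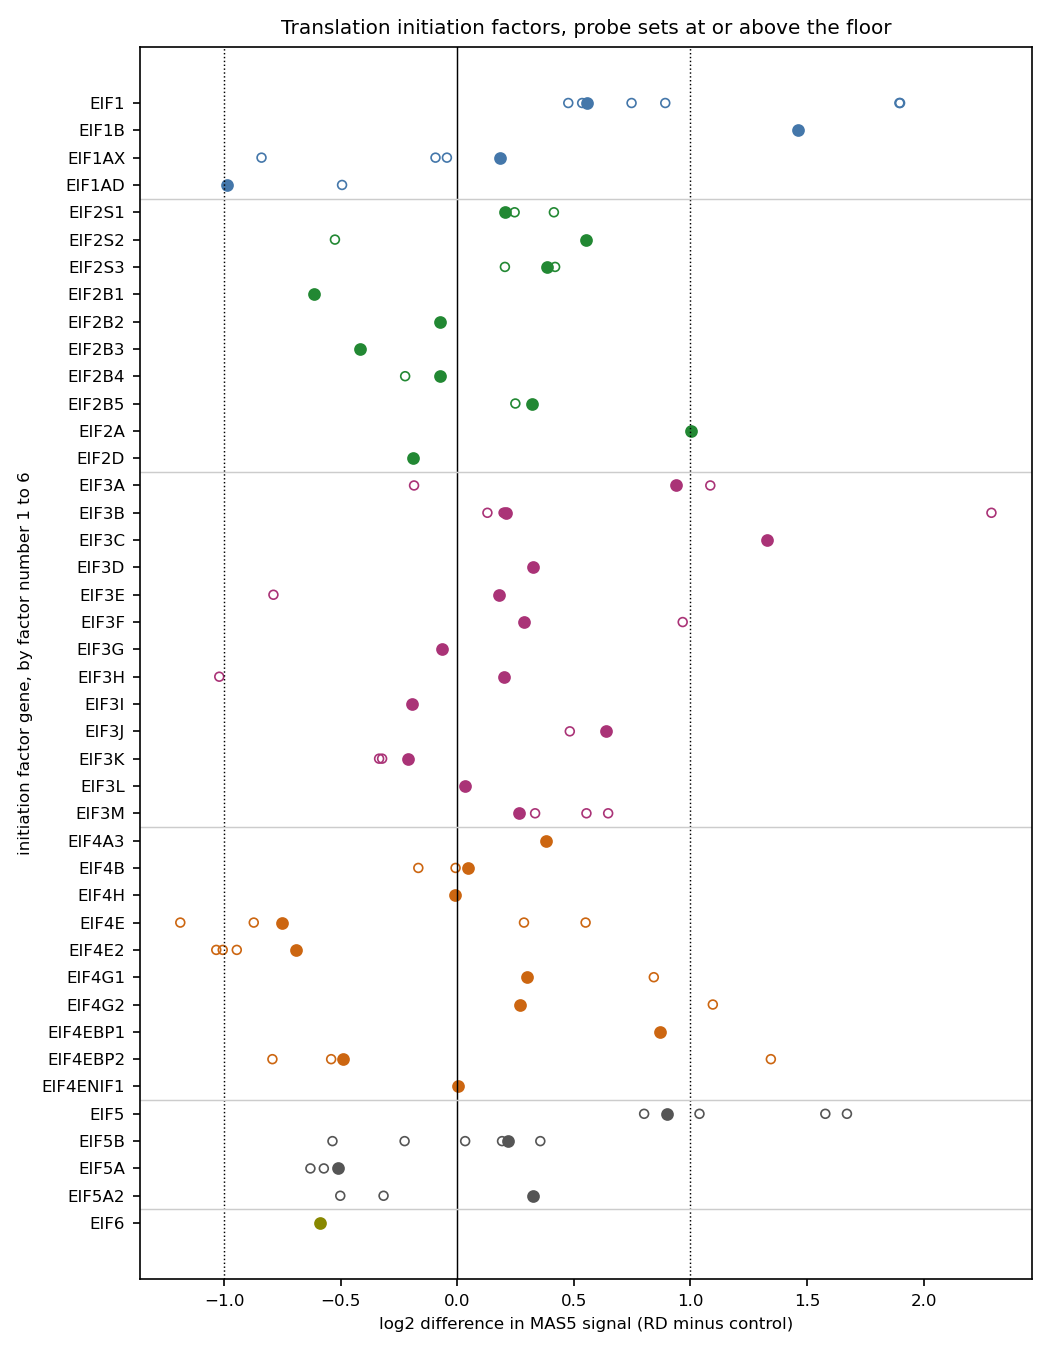
Difference in log2 MAS5 signal (RD minus control, horizontal) of the 42 initiation factor genes at or above the floor, from EIF1 at the top to EIF6 at the bottom. Filled circles are the brightest probe set of each gene, open circles are its other probe sets at or above the floor, and dotted lines mark 2-fold. All 7 probe sets of EIF1 and all 5 of EIF5 lie to the right of 0 and all 4 of EIF4E2 lie to the left.

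Bright genes as a class differed less. Among the 7050 genes whose signals were 377.4 or more on both arrays, 7.96% of genes were at least 2-fold higher and 8.45% at least 2-fold lower. Of the 40 initiation factor genes in this class, EIF1B and EIF2A were higher (5%) and none was lower. The middle 50% of these 40 genes lay between log2 differences of -0.10 and 0.34, and that of all 7050 genes lay between -0.46 and 0.44. Of the 40 genes, 18 differed by less than the SD of 0.28 between probe sets, and 11 differed by at least 2 SD (1.47-fold). These 11 were EIF1B, EIF2A, EIF3A, EIF5, EIF4EBP1 and EIF3J on the higher side and EIF1AD, EIF4E, EIF4E2, EIF2B1 and EIF6 on the lower side. The share of all bright genes past 2 SD was not counted. At the nearby limit of 1.5-fold, which the same 11 genes passed, 15% of the 40 genes were higher and 12.5% lower. Among all 7050 genes these shares were larger, at 18.8% and 20.6%.

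**Figure D2:**
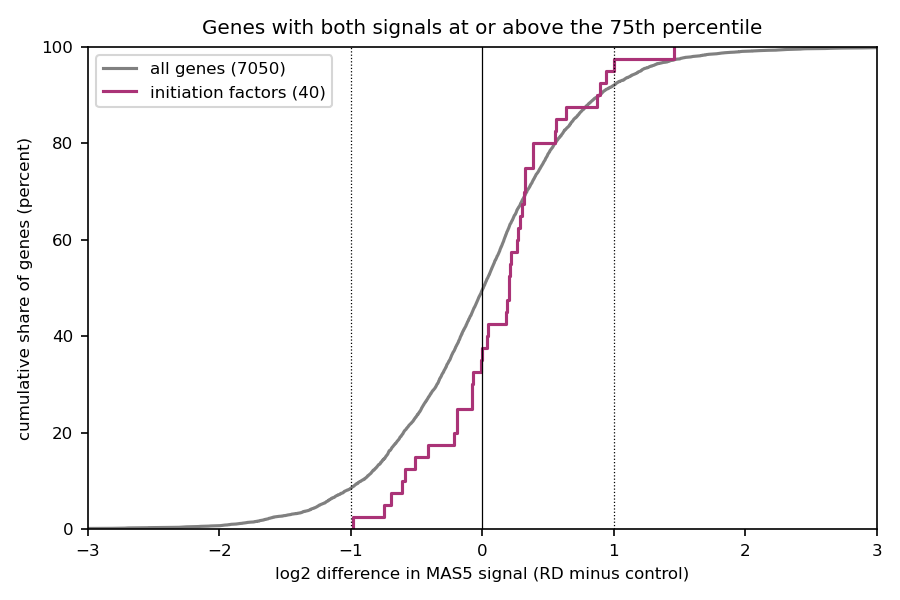
Cumulative share of genes (vertical, percent) up to each log2 difference (RD minus control, horizontal), for the 40 initiation factors and all 7050 genes that had 377.4 or more on each array. The medians are 0.20 and 0.0075, and the curve of the initiation factors is steeper than that of all genes.

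The promoters of the family were searched for the letters that factors of stress and growth bind, because members on both sides could then be set beside the letters before their starts. RefSeq windows from 250 bases before to 50 bases after the transcript start (GRCh38.p14) were found for 37 of the 44 genes, 51 windows in all. The E-box letters CACGTG, which read the same on both strands and are bound by MYC and related factors, were in 10 windows (19.6%), against 7.26% of all 35116 windows. Of the 10 genes, 6 had higher and 4 had lower signals in RD-treated cells, beside 27 and 15 of the 42 genes of the family. EIF4B and EIF4H, counted on opposite sides, hardly differed from control, with ratios of 1.03 and 0.992. Whether the split of the 10 genes differs from that of the family was not tested. The letters TGATGNAA on either strand, a form of the element that ATF4 binds with a C/EBP partner, were in 1 window (1.96%), that of EIF4E3, against 3.62% of all windows. The letters TGACGTCA, the cAMP response element, were in none of the 51 windows against 1.85% of all. No window of a member held more than 1 of the 3 motifs. A match describes the letters alone, and base composition was not taken into account.

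The 250 bases before the start are shown for EIF1B, 2.75-fold higher, and for EIF4E, 1.68-fold lower, with each CACGTG in capitals and the rest in lower case, and EIF4E was picked after its value was seen. EIF1B lies on the plus strand at chr3:40309457-40309706 and EIF4E on the minus strand at chr4:98929134-98929383, both written 5′ to 3′ in the direction of transcription.
EIF1B: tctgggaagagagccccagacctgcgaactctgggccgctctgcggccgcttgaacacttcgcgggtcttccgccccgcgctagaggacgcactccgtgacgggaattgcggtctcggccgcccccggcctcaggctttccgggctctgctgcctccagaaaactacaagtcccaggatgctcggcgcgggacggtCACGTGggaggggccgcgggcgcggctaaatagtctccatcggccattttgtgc
EIF4E: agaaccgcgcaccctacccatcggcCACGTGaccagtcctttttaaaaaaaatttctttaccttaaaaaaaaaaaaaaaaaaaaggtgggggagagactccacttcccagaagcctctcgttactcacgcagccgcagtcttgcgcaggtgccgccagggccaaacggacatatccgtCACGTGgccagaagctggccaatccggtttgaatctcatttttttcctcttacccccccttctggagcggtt
The EIF1B window holds the letters once, at position -54 counted from the start, and the EIF4E window holds them 2 times, at -225 and -72. The windows of EIF1, EIF2A and EIF5, with higher signals, and of EIF4E2, with lower ones, are not shown and held none of the 3 motifs.

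Of the 3 start codon selection genes EIF1, EIF1B and EIF1AX, only EIF1B passed 2-fold by its brightest probe set. EIF1 encodes eIF1 itself and was read by 7 probe sets, all of which were higher in RD-treated cells. Its brightest probe set had a signal of 38079.6 in control and 56071.1 in RD-treated cells, a ratio of 1.47. That RD signal was 89.0% of the highest signal on the array, and whether the signal was compressed there was not tested. The next 3 bright probe sets had ratios of 1.45, 1.68 and 1.86. Among the dim ones, 1 went from 98.4 to 366.2 (3.72-fold), 1 from 292.6 to 1091.1 (3.73-fold) and 1 from 357.2 to 496.8 (1.39-fold). The direction was thus shared by all probe sets, while the size ranged from 1.39-fold to 3.73-fold. Only the 3.72-fold and 3.73-fold probe sets have names that mark no shared sequence. Whether the others also read other transcripts was not tested.

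EIF1B, a close paralog of EIF1, had the largest difference of the bright members. Its signals were 7180.1 (control) and 19738.5 (RD), and the ratio was 2.75. A second probe set of EIF1B lay under the floor on both arrays. The neighbouring antisense gene EIF1B-AS1 had signals of 40.5 and 83.5, which is at least 1.25-fold higher when measured from the floor. EIF1AX, which encodes the partner factor eIF1A, stayed close to control, with signals of 9963.8 and 11322 (1.14-fold higher). Its other 3 probe sets had ratios of 0.56, 0.94 and 0.97, so no direction was shared. EIF1AD, which encodes a nuclear protein with an eIF1A domain, had a lower signal after RD. Its signals were 1302.2 and 657.4 (1.98-fold lower), short of 2-fold, and its other probe set was 1.41-fold lower.

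EIF5, whose product triggers GTP hydrolysis on eIF2 and so works against eIF1 at the start codon, was also higher by all of its probe sets. The brightest had signals of 14662.4 in control and 27310.8 after RD, a ratio of 1.86 that lay just short of the threshold. Of the other 4 probe sets, 3 passed it, at 3.18-fold, 2.99-fold and 2.05-fold, and the dimmest was 1.74-fold higher. That dimmest one is the only one of EIF5 whose name marks no shared sequence. The median over the 5 probe sets was a log2 difference of 1.04. EIF5B, the subunit joining GTPase, had signals of 2652.3 and 3087.1 (1.16-fold higher), with 4 of 6 probe sets higher. The differences of EIF1AX and EIF5B were within 1 SD of the scatter between probe sets.

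**Figure D3:**
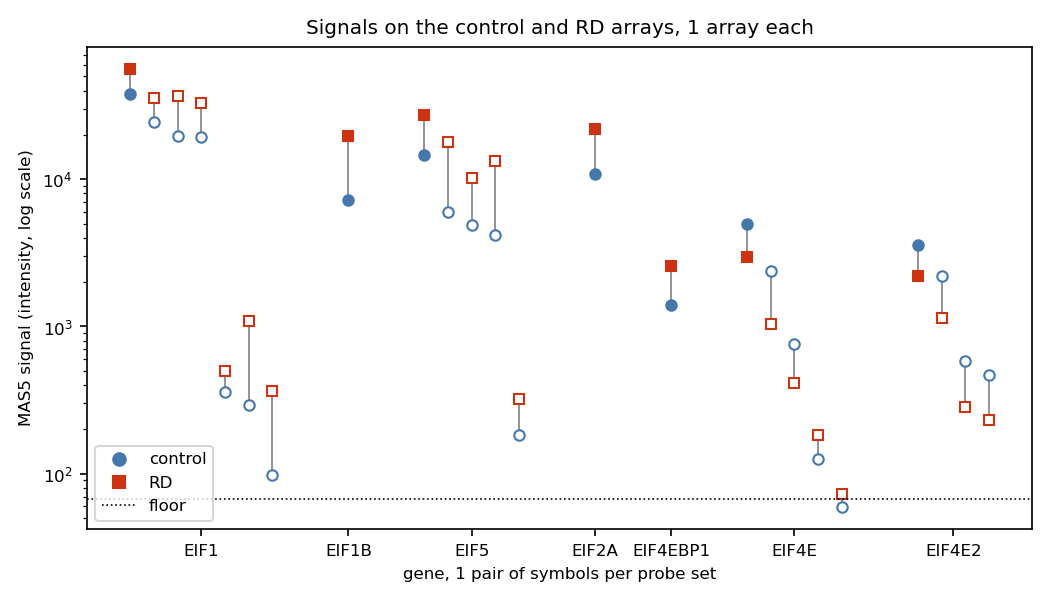
Circles (control) and squares (RD) give the MAS5 signal on a vertical log axis for the probe sets of 7 genes that reach the floor, and a vertical line connects each pair. Filling marks the probe set that represents its gene, and the floor of 66.9 is dotted. RD lies above control for every plotted probe set of EIF1, EIF1B, EIF5, EIF2A and EIF4EBP1 and below it for every one of EIF4E2 and the 3 bright ones of EIF4E. Heights are not comparable between probe sets.

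The carrier of the initiator tRNA, eIF2, has an alpha, a beta and a gamma subunit, encoded by EIF2S1, EIF2S2 and EIF2S3. All 3 had somewhat higher signals by their brightest probe sets. EIF2S1 went from 8609.9 to 9930.5 (1.15-fold), EIF2S2 from 24841 to 36376.8 (1.46-fold) and EIF2S3 from 3731.3 to 4864.4 (1.30-fold). All 3 probe sets of EIF2S1 and all 3 of EIF2S3 were higher, but the second probe set of EIF2S2, much dimmer than the first, was 1.44-fold lower (533.6 and 370.9).

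Of the 5 subunit genes of the exchange factor eIF2B, 4 had lower signals, 1 of them (20%) by at least 1.5-fold against 24.7% of all genes, and none passed 2-fold. EIF2B1, which encodes the alpha subunit of the regulatory part, was lowest, with 2694 in control and 1759.7 in RD-treated cells (1.53-fold lower). EIF2B3, of the catalytic part, had signals of 1892.8 and 1419 (1.33-fold lower). EIF2B2 and EIF2B4, the other regulatory subunits, were both 1.05-fold lower, which is within the scatter. EIF2B5, the catalytic subunit, was 1.25-fold higher, at 1076.5 and 1344.6, and its second probe set was 1.19-fold higher. The medians over the subunits were -0.08 for eIF2B and 0.38 for eIF2 on the log2 scale, and the difference between these groups was not tested.

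EIF2A, despite its name no subunit of eIF2, encodes a factor that can deliver initiator tRNA without GTP. Its only probe set had signals of 10866.3 and 21747.1, a difference of 2.00-fold that lay on the threshold. It was 0.96 on the log2 scale after each array was centred on its median. EIF2D, another factor with such an activity, had signals of 3364.7 and 2950.4 (1.14-fold lower).

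The scaffold eIF3 showed small differences in most of its 13 subunit genes read here. Of these, 10 had higher and 3 had lower signals, with a median log2 difference of 0.21. Over all genes at or above the floor the split was nearly even, with 6390 higher and 6425 lower. EIF3A, the largest subunit, stood out among the bright ones, with 9321.9 in control and 17873.3 in RD-treated cells (1.92-fold higher). Its second probe set was 2.12-fold higher, but the remaining one was 1.14-fold lower (1036.3 and 911.3), and it is the only one of EIF3A whose name marks no shared sequence. EIF3J, a loosely bound subunit, had signals of 7286.7 and 11321 (1.55-fold higher), and its other probe set was 1.40-fold higher. The divergent noncoding transcript EIF3J-DT had 709 and 568.8 (1.25-fold lower).

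EIF3C was the only subunit counted as higher, at 69.4 and 174.1 (2.51-fold), but this rests on 1 dim probe set just above the floor. Probe sets that the array annotation pairs with both EIF3C and EIF3CL were not used. The remaining subunits were EIF3D, EIF3B, EIF3E, EIF3F, EIF3H, EIF3L and EIF3M on the higher side, between 1.02-fold and 1.25-fold, and EIF3G, EIF3I and EIF3K on the lower side, between 1.05-fold and 1.16-fold. EIF3M, a subunit of the module that also holds EIF3F and EIF3H, was higher by all 4 of its probe sets that reached the floor, by 1.20-fold, 1.26-fold and 1.47-fold and, in the dimmest, by at least 1.19-fold when measured from the floor. EIF3K was lower by all 3 of its own. In EIF3E and EIF3H a second, dimmer probe set pointed the other way, with ratios of 0.58 and 0.49.

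The eIF4 group had 10 genes that reached the floor, 6 with a higher and 4 with a lower signal after RD. For all genes these counts were 6390 and 6425. None of the 10 passed 2-fold by its brightest probe set. EIF4E encodes the cap-binding protein, and its brightest probe set had signals of 4998.4 in control and 2969.3 in RD-treated cells (1.68-fold lower). The next 2 in brightness were 1.83-fold lower (758.7 and 414.3) and 2.28-fold lower (2368.7 and 1039.7). Its 2 dim probe sets were higher, from 126 to 184.5 and from 59.3 to 72.3. EIF4E2, a cap-binding homolog that does not bind eIF4G well and is known for repressing translation, was lower by all 4 of its probe sets. The brightest had signals of 3581.3 and 2217.3 (1.62-fold lower), and the others were 1.93-fold, 2.01-fold and 2.05-fold lower. EIF4E3 lay under the floor by its brightest probe set, and another of its probe sets had 126.3 in control and 5.9 in RD-treated cells, at least 1.89-fold lower when measured from the floor.

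Of the 3 genes whose products hold eIF4E back, 1 had a higher and 1 had a lower signal, and the 2 signals of EIF4ENIF1 were nearly equal. EIF4EBP1, a binding protein that mTORC1 inactivates by phosphorylation, had signals of 1405.5 and 2567.7 (1.83-fold higher) from its only probe set. EIF4EBP2 had 465.2 and 331.2 (1.40-fold lower), with 2 further probe sets 1.45-fold and 1.73-fold lower. The last one, at the floor, was 26.5 in control and 67.3 in RD-treated cells, a ratio of 1.01 when measured from the floor. EIF4ENIF1, which carries eIF4E into the nucleus, was the same on both arrays, at 761.3 and 761.8. None of these binding protein genes passed 2-fold.

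The eIF4G scaffolds and the helicase cofactors differed by less than 1.5-fold by their brightest probe sets. EIF4G1 had signals of 2050.3 and 2524.4 (1.23-fold higher), and its other probe set was 1.79-fold higher. EIF4G2, which encodes a scaffold that lacks the eIF4E-binding site, had 29208 and 35241.2 (1.21-fold higher). EIF4B, which stimulates the helicase eIF4A, was at 1.03 of control and EIF4H at 0.992 of control. The helicase genes themselves could hardly be judged. No probe set of EIF4A1 is paired with that gene alone, the only such probe set of EIF4A2 lay under the floor on both arrays, and in all 10 probe sets that name a member together with other genes were not used. EIF4A3, which despite its name acts in the exon junction complex, had 5364.9 and 6992.9 (1.30-fold higher).

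Neither the eIF5A genes nor EIF6 passed 2-fold. EIF5A, the hypusine-carrying factor, had signals of 17189.5 and 12074.4 (1.42-fold lower), and its other probe sets were 1.49-fold and 1.55-fold lower. Its paralog EIF5A2 had 546.4 and 684 (1.25-fold higher), although its other 2 probe sets were 1.25-fold and 1.42-fold lower. EIF6 had 15244.7 and 10121.5 (1.51-fold lower) by its only probe set. The lower signal of EIF5A was shared by all 3 probe sets, and that of EIF6 has no second probe set beside it.

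These genes had 103 probe sets that reached the floor, of which 12 (11.7%) passed 2-fold on the higher side and 5 (4.85%) on the lower side. For the 24934 single-gene probe sets of the whole array that did so, these shares were 13.4% and 13.2%. Some of the counted probe sets had a signal under the floor on the other array. Measured from the floor, those of EIF3B (1.97-fold), EIF4G2 (1.47-fold) and EIF4EBP2 (1.01-fold) on the higher side fell short of 2-fold. So did that of EIF4E3 (1.89-fold) on the lower side. The whole-array shares were counted by the same rule. Of 26 genes with several probe sets that reached the floor, 16 had all of them on the same side, 11 on the higher side and 5 on the lower side. The same count was not made over all genes, so whether this agreement is usual on the array cannot be said. Beside EIF1 and EIF5, the genes with at least 3 probe sets all higher were EIF2S1, EIF2S3, EIF3B, EIF3F and EIF3M. Those with at least 3 all lower were EIF3K, EIF4E2 and EIF5A.

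Other genes of translation were listed by function and are read against the same shares of all genes, 12.1% higher and 13.3% lower. Among 15 genes that control eIF2 phosphorylation, 3 were at least 2-fold higher (20.0%) and none lower, with a median log2 difference of 0.26. PPP1R15A, the stress-induced subunit that directs a phosphatase to eIF2, was 6.10-fold higher (930.5 and 5679.1), the kinase gene EIF2AK3 (PERK) was 3.58-fold higher (1166.6 and 4171.3), and DNAJC3, an inhibitor of such kinases, was 2.66-fold higher (1377.1 and 3662.8). These 3 genes were named because they passed 2-fold, and no eIF2 subunit did, so their sizes cannot be set against those of the subunits. The whole list had a median of 0.26 with quartiles of -0.04 and 0.81, and the 3 eIF2 subunits had a median of 0.38. The difference between these medians was not tested. The other eIF2 kinase genes were within 2-fold, with EIF2AK2 at 1.20-fold higher, EIF2AK1 at 1.15-fold lower and EIF2AK4 at 1.53-fold lower.

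Among 24 partners of initiation at or above the floor that have no EIF name, none was at least 2-fold higher and 3 were lower (12.5%). CTIF, a scaffold of the nuclear cap-binding complex, was 3.55-fold lower (272.3 and 76.7), CYFIP2 was 3.20-fold lower (361.1 and 112.7), and CYFIP1, which binds eIF4E, was 2.08-fold lower (12281.8 and 5915.7). MKNK2, a kinase that phosphorylates eIF4E, was 1.85-fold higher, short of the threshold. The poly(A)-binding protein gene PABPC1 was 1.25-fold higher.

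Of 11 elongation and termination factors, PELO, which rescues stalled ribosomes, was 4.42-fold higher (2912.2 and 12861.7), and no other passed 2-fold. The share higher, 9.09%, was below the 12.1% of all genes. The elongation factors EEF1A1 and EEF2 were 1.12-fold and 1.35-fold higher. In the mTORC1 module, RRAGC, a GTPase of amino acid sensing, was 2.18-fold higher (3655.6 and 7958.9). LAMTOR4, of its lysosomal anchor, was 2.07-fold lower (2193.3 and 1058.2). Each of them makes up 5.56% of the 18 genes, also below the 12.1% and 13.3% of all genes. None of 10 mitochondrial translation factors passed 2-fold, and the largest difference was 1.77-fold higher, in MTRFR. The list medians were 0.12 for the partners, 0.09 for elongation and termination, -0.10 for the mTORC1 module and 0.04 for the mitochondrial factors.

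**Figure D4:**
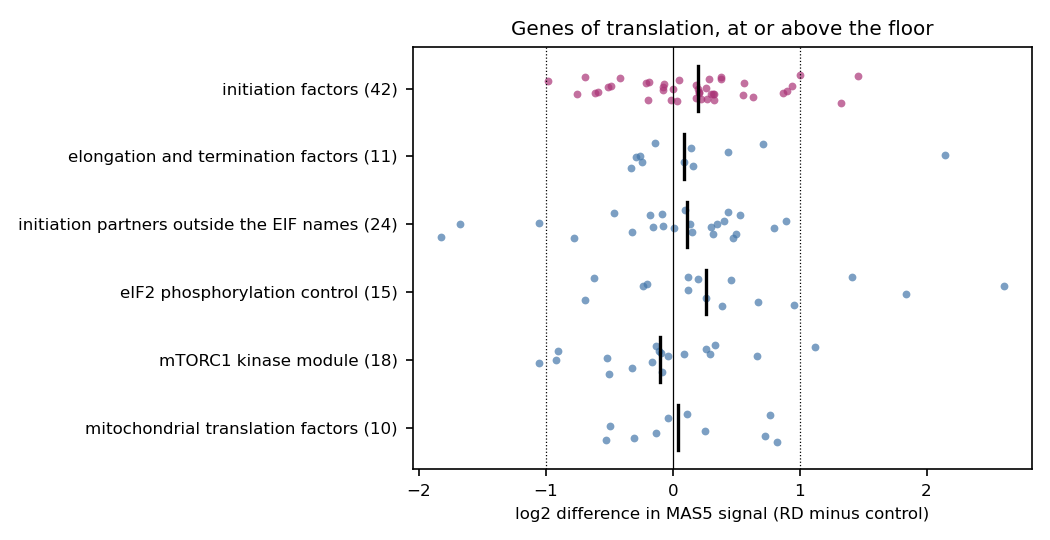
Each point is a gene that reached the floor, placed by its log2 difference in MAS5 signal (RD minus control, horizontal) in the row of its list, whose size stands in brackets. Short bars mark medians and dotted lines 2-fold. The initiation factors (median 0.20) span -0.99 to 1.46, and the points farthest to the right are PPP1R15A, PELO and EIF2AK3.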

How the data were processed

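Total RNA of a control and an RD culture of PC-3 cells (24 h) was hybridised by the authors to HG-U133 Plus 2.0 arrays. The deposited values are intensities on a linear scale, computed with MAS5 according to the submitters' processing notes. MAS5 scales each array by a single factor and subtracts mismatch signals, which makes ratios of dim probe sets unstable. The sources used here give neither its version nor its scaling target, and detection calls were not used here. Both arrays had medians close to each other (65.9 and 67.8), and no further normalization was applied. The number of arrays limits the precision.

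Differences were taken as log2 RD minus log2 control with no offset. Genes were named from single-gene entries of the platform annotation, and all 47 member symbols stood in the RefSeq gene table of GRCh38.p14. Among several probe sets of a gene, that with the highest mean log2 signal was taken. No test was made. Every member at or above the floor could be named, and from the other lists up to 4 genes past 2-fold in each direction, while further genes of those lists were named after their values were seen. The members, lists and motifs were chosen with earlier results of these data known. Scripts were checked on a noisy copy of the control array with known shifts. Alternatives covered centring, quantile normalization, adding 17.1 (25th percentile of all signals) before the log, the choice of probe set, the floor and the threshold, and 1 more was chosen after the data were seen, the inclusion of the noncoding genes. Scripts ran in Python 3.11.15 with pandas 2.3.3 and numpy 2.4.6, and plots were drawn with matplotlib 3.10.9.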

Additional observations from a re-analysis of the deposited data

How the results depend on the processing

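With a threshold of 1.5-fold, 7 genes were higher and 5 lower, and with 3-fold none was (0 higher). EIF1AD passed as the 1 lower gene when arrays were centred on their medians (-1.03) or quantile normalized (-1.01), EIF4E3 as the 1 lower gene with the median over probe sets at or above the floor (-4.42), which takes in its single such probe set, and EIF4E2 as the 1 lower gene with probe sets free of shared-sequence suffixes (-1.03). That last choice left 34 genes with a median log2 difference of 0.088, put EIF1 at 1.90 and turned EIF3A to -0.19. The median over probe sets gave a median of 0.00095 over 43 genes and raised EIF5 past 2-fold (1.04). EIF2A dropped out of the higher genes under centring (0.96) and under the offset (0.9998, just under the threshold), and EIF3C under the floor at the 75th percentile, since both its signals lie below it. EIF1B was higher in every alternative except the threshold of 3-fold. With the noncoding genes included, an alternative chosen after seeing the data, 4 genes were higher, EIF1B-AS1 being the added one. A count was taken as close to that of the report when the larger of the 2 was at most 1.5 times the smaller. A median was taken as close when it differed by less than 0.083. By this rule 22 values for the counts and the median were close, among them changes of 1 higher gene given above, and 9 were not. With 1 array per condition, no replicate could be left out and no paired analysis was possible because the groups share no replicates. Dim probe sets, in which MAS5 differences scatter most, set the limit for EIF3C, EIF4E3 and EIF4EBP2. The SD between probe sets was 0.54 over all members at or above the floor, bright ones included, and 0.28 over the bright ones. It was not computed for dim probe sets alone.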
